A study of Mus musculus with 23 samples.

Results

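Plasmacytoid dendritic cells (pDCs) of the bone marrow were looked for in single-cell RNA sequencing of wild-type (WT) mice and of mice with 1 of 2 amino-acid changes at the same tyrosine of STAT5B, Y665H (to histidine) and Y665F (to phenylalanine). A barcode was taken when it held at least 500 detected genes, at most 10% of its UMIs (unique molecular identifiers, counts of captured RNA molecules) in mitochondrial genes, at least 1 UMI of Siglech and of Irf8, and none of Cd79a and Klf1. Of 69444 bone marrow barcodes that passed the 2 quality limits, 105 met this gate, in a series of 139967 barcodes over 16 expression libraries. Siglech encodes a surface lectin of mouse pDCs and Irf8 a transcription factor of dendritic cell development, while Cd79a marks B cells and Klf1 red-cell precursors. The cells were chosen by the UMI values of these 4 genes, so their levels in the gate are a description and no finding.

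Bone marrow was taken from the tibiae and femurs of C57BL/6 mice at 2 months of age, with 2 libraries each for WT, Y665H and Y665F. The Y665H allele was made by base editing and the Y665F allele by Cas9 cutting with a donor oligonucleotide, both in C57BL/6N zygotes, and the labels do not give the zygosity of the bone marrow mice. Stat5b itself had 12 UMIs in the gate, between 0 and 4 per library, and UMIs do not show the edited codon, so the genotype labels could not be checked with it. In each genotype replicate 1 held Xist at 212 to 850 CPM (UMIs scaled to a library total of 1000000) and replicate 2 at most at 0.587 CPM, so replicate number and sex coincided, while the methods of the study speak of male mice. Y-linked genes gave the opposite split, at most at 0.0916 CPM in replicate 1 and at 62.4 to 109 CPM in replicate 2. The 2 libraries of a genotype thus came from different mice, although the labels do not say how many mice each held. With 1 library of each sex per genotype, p-values measure the spread between these samples only.

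pDCs sense viral RNA and DNA inside endosomes through the receptors TLR7 and TLR9 and answer with large amounts of type I interferon. They arise in the marrow from progenitors that need the cytokine receptor FLT3, and the transcription factor TCF4 (E2-2) sets and keeps their identity. STAT5 proteins are activated by cytokine receptors, and GM-CSF acting through STAT5 is known to hold back pDC development by lowering Irf8. The allele pair therefore bears on a lineage in which STAT5 is a known brake.

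The edited site is shown because every comparison turns on it. The guide was the same for both alleles. Stat5b lies on the minus strand of chromosome 11, and the guide, read on the plus strand, matched its exon 16 of 19 at chr11:100787287-100787309 (GRCm38, GENCODE M21), a coding exon. The codon of this tyrosine, TAC on the coding strand, lay inside the matched site, where the guide carries its reverse complement. Capitals mark the PAM, the bases that Cas9 needs beside its target.
Stat5b guide: tgaggtaattcaggtcccccAGG

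Short stretches of the promoters of the gate genes and of the genes that differed most between genotypes were searched for the STAT-type motif TTCNNNGAA (GAS) and the interferon-type motif GAAA, any 2 bases and GAAA again (ISRE) on both strands, in the 250 bases before and 50 after each RefSeq start (GRCm38.p6). GAS was held by 8.30% of 32851 promoters and ISRE by 3.44%. Siglech held 1 GAS match, the upstream promoter of Irf8 held 2, Ifitm3 held 1 GAS match that overlaps 1 of its 2 ISRE matches, Ifitm2 held 1 ISRE match and Ifitm1 held neither motif. Among the other genes that differed, Pclaf, Eif5a, Hmgn2, Dynll1 and Rps9 held neither in any listed promoter. A match is a run of letters, and binding was not measured in these cells. Capitals mark the motif, and each line names the gene, the motif and the strand.
Siglech GAS, plus strand, chr7:55768052-55768078: cagcctttaTTCTCTGAAccacaccca
Irf8 GAS, plus strand, chr8:120736178-120736204: aaaagtgatTTCTCGGAAagagagcgc
Ifitm3 GAS, minus strand, chr7:141010714-141010740: aaaggaaacTTCTGAGAAaccgaaact
Ifitm2 ISRE, minus strand, chr7:140955989-140956016: caccaacagGAAAAGGAAAttgctagag

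The depth behind the gate was small. WT gave 17 and 16 gate cells, Y665H 13 and 7, and Y665F 28 and 24, with 97036, 48308, 43522, 13794, 126615 and 77144 UMIs. A gate cell held between 830 and 19832 UMIs, with a median of 3115, and the library medians were higher in replicate 1 (3728 to 5046) than in replicate 2 (1708 to 2384). Most cells entered by a single molecule, since 87 of 105 held exactly 1 Siglech UMI, 44 held exactly 1 Irf8 UMI and 36 held 1 of each. Just outside the gate lay 106 barcodes with Siglech and no Irf8 UMI and 8604 with Irf8 and no Siglech UMI. No gate barcode was shared between libraries, which shared between 1.54% and 2.89% of the barcodes of the smaller library in each pair. In Y665F replicate 2 every barcode with at least 200 genes also passed the limit of 500 genes, which was the case in no other library.

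Free RNA can put a Siglech UMI into a droplet of another cell. Among barcodes with Klf1, which should lack both gate genes, 3 of 8319 held Siglech and Irf8 together (0.0361%, exact 95% interval 0.00744% to 0.105%), although their library medians were deeper at 2864 to 9165 UMIs. Among barcodes without Cd79a and Klf1, with medians of 1528 to 2673 UMIs, 105 of 58144 did (0.181%, 0.148% to 0.219%). Among barcodes with at least 1500 UMIs, each thinned to 1500 and shallower ones left out, Irf8 was detected in 39.3% of Siglech barcodes and in 9.31% of those without Siglech (49.8% and 14.9% unthinned). These values come from the genes that the gate used and are a description. By library the order was not uniform, since in Y665F replicate 2, 2 of 1111 Klf1 barcodes held both genes (0.180%), against 24 of 16814 barcodes without Cd79a and Klf1 (0.143%). Among Cd79a barcodes, 6 of 2981 held both (0.201%), beside 0.181% of barcodes without Cd79a and Klf1, again as a description only. All intervals cover counting error only.

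The label of the cells was then checked against 16 pDC markers that the gate did not use, and the result was mixed. Their summed level was 2261 CPM in the gate and 618 CPM in the Irf8 barcodes without Siglech. It was 13129 CPM in the 38 spleen cells and 19872 CPM in the 57 lymph node cells that the same gate found, with spleen gate cells deeper at medians of 9491 to 10065 UMIs. The lymph node cells came from libraries labelled WT (19 and 18 cells), heterozygous Y665F (9, 3 and 2) and homozygous Y665F (4 and 2). The spleen cells came from WT (12), Y665H (23) and Y665F (3). Genotypes were thus pooled in different proportions, and levels are set side by side across tissues without a test. The gate cells of spleen held a median of 20 to 30.5 Siglech UMIs in WT and Y665H, where 87 of 105 marrow cells held 1.

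**Figure D1:**
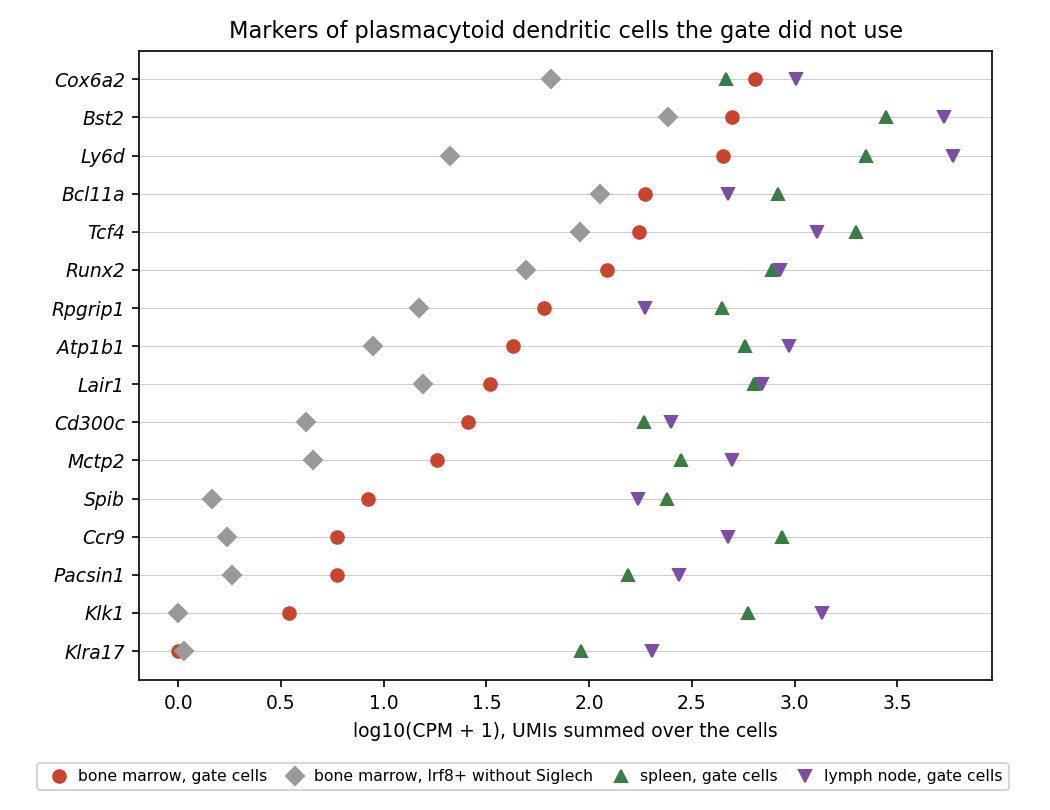
Levels of 16 pDC markers not used by the gate, as log10(CPM + 1) of UMIs summed over cells, for bone marrow gate cells (circles), bone marrow Irf8 barcodes without Siglech (diamonds) and gate cells of spleen (upward triangles) and lymph node (downward triangles). Cox6a2 reached 642 CPM in marrow gate cells and 465 CPM in spleen gate cells, while Ccr9, Pacsin1, Klk1 and Klra17 lay at or below 4.92 CPM in marrow gate cells and at 90.1 CPM or more in spleen gate cells.

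Several of the 16 markers were present. Cox6a2, a subunit of a mitochondrial enzyme and a known pDC gene, had 261 UMIs in 59 cells and was detected in 49.4% of the 89 gate cells with at least 1500 UMIs against 7.2% of Irf8 barcodes without Siglech at 1500 UMIs. Ly6d, a surface protein of lymphoid progenitors, had 181 UMIs in 38 cells and was detected in 31.5% against 2.04%. Bst2, an interferon-induced membrane protein that mature pDCs carry, had 202 UMIs in 80 cells, at 50.6% against 28.3%. Tcf4 had 71 UMIs in 45 cells and showed a smaller contrast, at 16.9% against 12.4%. At least 2 of 6 further markers (Bst2, Tcf4, Ccr9, Ly6d, Runx2, Cox6a2) were seen in 81 of 105 cells, and 5 cells held none.

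Markers of finished pDCs were nearly absent. Among 406419 gate UMIs, the gut-homing receptor Ccr9 had 2, Pacsin1 had 2, Klk1 had 1, the transcription factor Spib had 3 and Klra17 had none. Any of Ccr9, Klk1, Pacsin1 and Klra17 was seen in 4 of 105 cells. The sensing genes gave the same picture, with 5 UMIs of Tlr7, 1 of Tlr9 and 4 of Irf7, the factor that drives interferon genes, although Unc93b1, the chaperone of these receptors, had 69. Genes of the endosomal sensing list as a whole reached 1370 CPM in the marrow gate, 3863 CPM in the spleen gate and 6269 CPM in the lymph node gate.

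Genes of dividing and immature cells were also found. Cell cycle genes reached 6262 CPM in the marrow gate against 1868 CPM in the spleen gate and 572 CPM in the lymph node gate, beside 4649 CPM in marrow Irf8 barcodes without Siglech and 4466 CPM over all marrow. Mki67 or Top2a was seen in 68 of 105 cells. Dntt, the enzyme that adds bases to rearranging receptor genes in lymphoid progenitors, had 203 UMIs and was detected in 41.6% of gate cells against 12% of Irf8 barcodes without Siglech at 1500 UMIs. Il7r, a receptor of early lymphoid cells, had 53 UMIs at 18.0% against 2.40%. UMIs of primary granule genes, which myeloid progenitors make, were found in 91 cells (Mpo, Elane, Prtn3 or Ctsg). At 1500 UMIs, Mpo was detected in 21.3% of gate cells against 51.0% of Irf8 barcodes without Siglech, and Prtn3 in 43.8% against 70.5%. The neutrophil list, in which these 4 genes held 629 of 652 UMIs, reached 1604 CPM in the gate, 5737 CPM in the Irf8 barcodes without Siglech and 3688 CPM over all marrow, where the 4 granule genes alone were at 1955 to 2828 CPM per library. The part of free RNA was not tested. Granule genes and at least 1 of Dntt, Il7r and Ly6d were seen together in 64 cells, and neither group in 3.

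Lists of other cell types were then summed. Erythroid genes reached 421 CPM, B-lineage genes 226 CPM, macrophage genes 22.1 CPM, basophil and mast genes 29.5 CPM and T and NK genes 121 CPM, the last nearly all from Nkg7. Irf8 barcodes without Siglech held 745 CPM of erythroid and 142 CPM of B-lineage genes, and all marrow 3730 and 302 CPM. In the gate and in those Irf8 barcodes, Klf1 of the erythroid list and Cd79a of the B-lineage list are 0 by choice. These sums are thus partly fixed by the gate. Monocyte genes reached 856 CPM against 907 CPM in Irf8 barcodes without Siglech and 341 CPM over all marrow, and F13a1 or Csf1r was seen in 31 cells. Plasma cell genes reached 394 CPM against 113 CPM over all marrow, and Ighm gave 340 of the 394 CPM. Macrophage genes were at 14.7 CPM over all marrow. A single Y665F replicate 1 cell held 463 of the 465 UMIs of Prg2, an eosinophil granule gene. Doublet scoring marked 14 of the 105 cells. It marks a share fixed by the barcodes of a library, from 137 of 3866 quality-passing barcodes in WT replicate 1 to 2805 of 18711 in Y665F replicate 2. The count is thus no measure of how many true doublets the gate held. The labelled tissue also held little RNA of several genes of finished blood cells, while the labels name no enrichment. Hba-a1 was at most at 77.4 CPM, Hbb-bs at 18.2 CPM, Ly6g at 3.72 CPM, Itgam at 11.0 CPM and Cd3e at 0.161 CPM in any library. Neutrophil markers other than Mpo, Elane, Prtn3 and Ctsg went the other way in Y665F marrow, at 3497 and 1493 CPM. They were at 19.2 to 161 CPM in the WT and Y665H libraries. Because late pDC markers were nearly absent, the cells are called gate cells here, and the name pDC is used for the gate only.

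The next question was whether the number of gate cells followed STAT5B activity, in the order Y665H, WT, Y665F, with Y665H taken as the allele of lower and Y665F of higher activity. Gate cells made up 0.440% and 0.156% of quality-passing barcodes in WT, 0.140% and 0.0666% in Y665H, and 0.167% and 0.128% in Y665F. The WT mean was 0.298% ± 0.201 (SD, n = 2), the Y665H mean 0.104% ± 0.0522 and the Y665F mean 0.147% ± 0.0271. The WT mean was the highest, but WT replicate 2 lay within the Y665F range. Y665F thus overlapped WT, and it also overlapped Y665H. Both WT libraries lay above both Y665H libraries, by a narrow margin between 0.156% and 0.140%. Values followed the order in 66.7% of pairs of libraries (Jonckheere-Terpstra statistic, two-sided exact permutation over 90 assignments, p = 0.578), where the smallest p that the design allows is 0.0222. WT had the highest share among the libraries with Xist and among those without, and the library with Xist had the higher share in each genotype. With pairs compared and genotypes permuted within a replicate number only, 66.7% of pairs followed the order (exact permutation p = 0.722, smallest possible 0.0556).

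**Figure D2:**
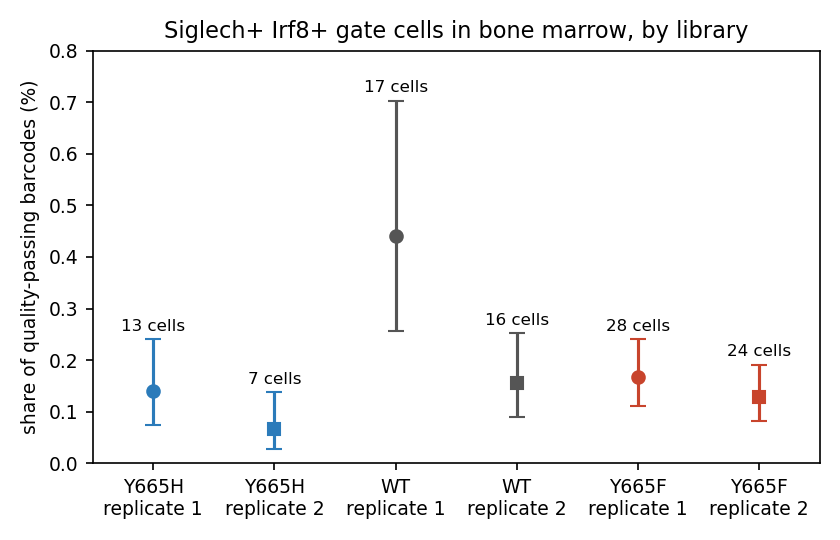
Share of quality-passing bone marrow barcodes that met the Siglech and Irf8 gate (y axis, percent), by library (x axis), with exact 95% binomial intervals that cover counting error only. WT replicate 1 lies at 0.440% and the other 5 libraries lie between 0.0666% and 0.167%.

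The shares were also taken among barcodes thinned to 1500 UMIs, which left out the shallower 1575 and 3195 barcodes in WT, 1595 and 3768 in Y665H, and 4338 and 4512 in Y665F. Among the rest, gate cells made up 0.218% (5 cells) and 0.141% (10 cells) in WT, 0.0261% (2 cells) and 0.0297% (2 cells) in Y665H, and 0.0481% (6 cells) and 0.0563% (8 cells) in Y665F. At equal depth the library values of the 3 genotypes did not overlap, with WT highest and Y665H lowest, on 33 cells in all. The exact binomial intervals of Y665H (0.00316% to 0.0943% and 0.00359% to 0.107%) and Y665F (0.0177% to 0.105% and 0.0243% to 0.111%) overlapped widely. The order of Y665H and Y665F thus lay within counting error. The WT intervals (0.0709% to 0.509% and 0.0676% to 0.259%) also overlapped those of both other genotypes. Values still followed the tested order in 66.7% of pairs (exact permutation p = 0.578), and no 2 against 2 comparison can go below p = 0.333. The statistic scores the order Y665H, WT, Y665F only, so it does not test whether WT lay above both other genotypes. The Siglech level over all marrow UMIs was 3.08 and 1.33 CPM in the WT libraries, 1.07 and 0.803 in the Y665H libraries, and 1.04 and 1.11 in the Y665F libraries. Fewer such cells and less Siglech RNA per cell cannot be told apart from that sum. When Irf8 was not required, the shares were 0.802% and 0.330% in WT, 0.367% and 0.162% in Y665H, and 0.268% and 0.267% in Y665F.

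Differences in gene expression were tested on UMIs summed over the gate cells of each library, with 1187 genes past the low-count filter. In Y665F against WT, 6 genes were called (adjusted p under 0.05 and absolute log2 fold change over 1), 0.505% of the genes tested, with 2 higher (0.168%) and 4 lower (0.337%). Over all marrow barcodes, with far more UMIs, 17.0% of 13873 genes were called. By unadjusted p, 149 genes were under 0.05. The count moved with the libraries kept, to 45 without WT replicate 1, 27 without WT replicate 2, 11 without either Y665H library, 4 without Y665F replicate 1 and 3 without Y665F replicate 2. Between the libraries of the 2 groups 47.1% of all tested genes did not overlap, so a lack of overlap on its own says little.

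The 2 genes that rose in Y665F gate cells encode interferon-induced membrane proteins that restrict virus entry. Ifitm1 (chr7:140967221-140969825, plus strand) had 72.1 and 20.7 CPM in the WT libraries, 23 and 290 in the Y665H libraries, and 703 and 713 in the Y665F libraries. Both Y665F libraries stood above the other 4, the value of 290 CPM rests on 4 UMIs, and 1 cell held 26 of the 55 UMIs of Y665F replicate 2. Its log2 fold change in Y665F against WT was 3.77 ± 0.55 (SE), with an adjusted p of 0.00194 (edgeR quasi-likelihood test). It was called under all 15 alternative settings, with values from 3.21 without doublets to 5.22 without WT replicate 1. Ifitm3 (chr7:141009586-141010770, minus strand) had 72.1 and 124 CPM in the WT libraries, 138 and 145 in the Y665H libraries, and 687 and 557 in the Y665F libraries. Again the Y665F libraries did not overlap the others. The log2 fold change was 2.87 ± 0.40 with an adjusted p of 0.00194, called under 14 of 15 settings, the exception being DESeq2 with an adjusted p of 0.0510. Ifitm2, their neighbour on chromosome 7, had a log2 fold change of 1.35 ± 0.44 that did not pass (adjusted p = 0.178).

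Ifitm1 and Ifitm3 were also higher over all marrow. Over all quality-passing marrow barcodes, Ifitm1 had a log2 fold change of 2.33 ± 0.44 (adjusted p = 0.00275) and Ifitm3 of 1.5 ± 0.27 (adjusted p = 0.000482) in Y665F against WT, while Ifitm2 had 0.13 ± 0.28 (adjusted p = 0.751). Ifitm1 was detected in 39 of 52 Y665F gate cells (75.0%) and 5 of 33 WT gate cells (15.2%), beside 78.9% and 28.6% of all marrow barcodes. Ifitm3 was detected in 73.1% of Y665F and 30.3% of WT gate cells, beside 76.9% and 41.6% of all marrow barcodes. The exact intervals of the WT gate shares, 5.11% to 31.9% for Ifitm1 and 15.6% to 48.7% for Ifitm3, held the marrow values. They pool the cells of both WT libraries and cover counting error only. Gate and marrow shares were not taken at equal depth. WT gate medians were 5046 and 2384 UMIs, beside 2068.5 and 1983 over all quality-passing WT barcodes. The part of depth and of free RNA was not tested. Erythroid genes over all marrow were at 5418 and 5976 CPM in WT and at 1142 and 901 CPM in Y665F. The part of a changed mix of cells in these and the later marrow values was not tested. The interaction tests against monocyte and B gates did not call Ifitm1 or Ifitm3.

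**Figure D3:**
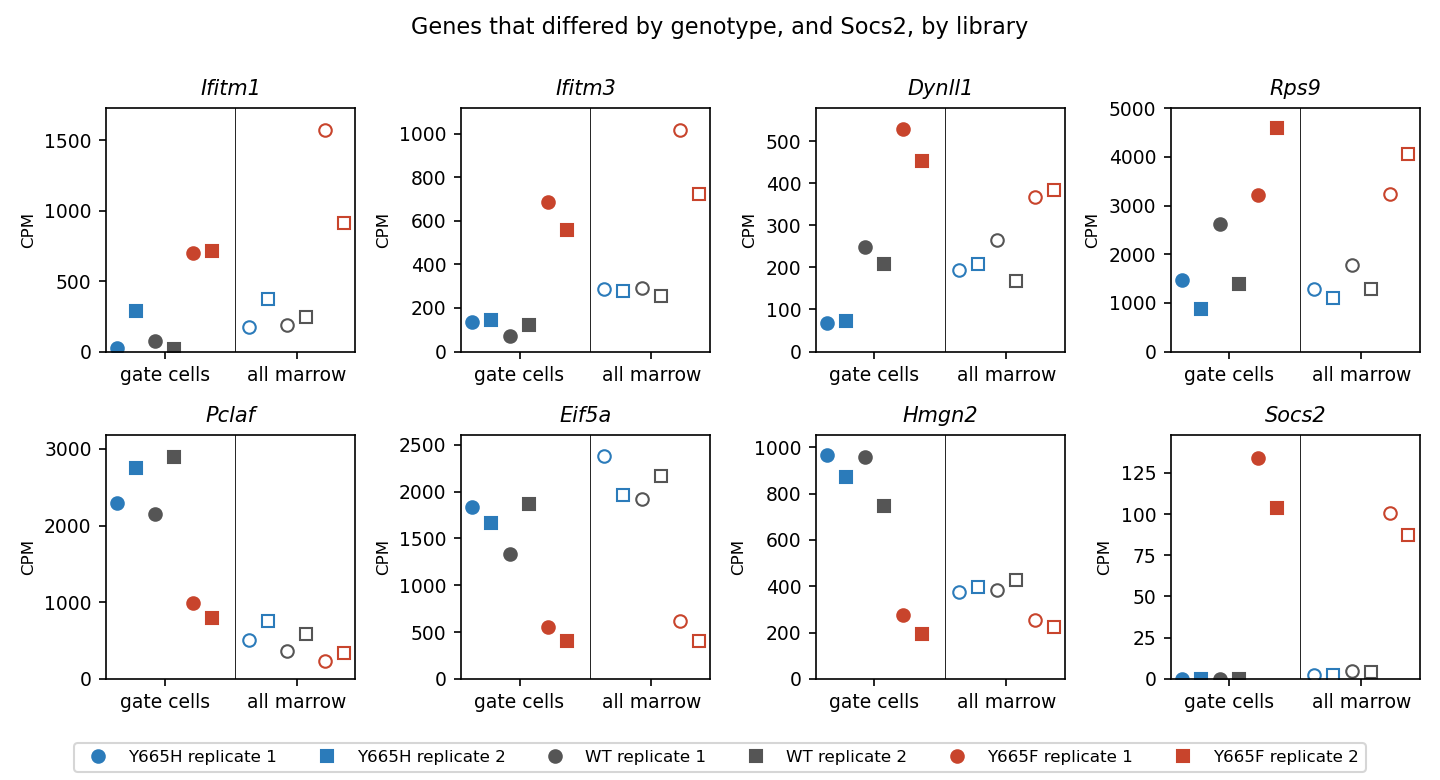
Levels in CPM of 7 genes called between genotypes and of Socs2, by library, for gate cells (filled symbols) and all quality-passing marrow barcodes (open symbols), with replicate 1 as circles and replicate 2 as squares. For Ifitm1, Ifitm3 and Socs2 both Y665F libraries lie above the other 4 in the gate and in all marrow, and for Eif5a and Hmgn2 both lie below.

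Of the 4 genes that fell, 3 have known products. Pclaf, a partner of the replication clamp PCNA, had 2154 and 2898 CPM in the WT libraries, 2298 and 2755 in the Y665H libraries, and 987 and 791 in the Y665F libraries, with a log2 fold change of -1.35 ± 0.28 in Y665F against WT (adjusted p = 0.0413). Eif5a, a translation factor, had 1329 and 1863 CPM in the WT libraries, 1838 and 1667 in the Y665H libraries, and 553 and 402 in the Y665F libraries, with a log2 fold change of -1.57 ± 0.33 (adjusted p = 0.0413). Hmgn2, a nucleosome-binding protein, had 958 and 745 CPM in the WT libraries, 965 and 870 in the Y665H libraries, and 276 and 194 in the Y665F libraries, with a log2 fold change of -1.72 ± 0.37 (adjusted p = 0.0413). In all 3 genes the Y665F libraries stood below the other 4, and WT and Y665H overlapped. The predicted gene Gm43305, which is named here after its values were seen, fell by 2.43 ± 0.46 on the log2 scale (adjusted p = 0.0259), from 2092 and 1056 CPM in WT to 363 and 169 CPM in Y665F. With the replicate number, which is also the Xist split, as a term, Eif5a (adjusted p = 0.0653) and Pclaf (adjusted p = 0.0739) no longer passed. Pclaf, Eif5a and Hmgn2 each kept the call in 9 of 15 settings, and all 3 lost it without Y665F replicate 1 (adjusted p = 0.270), without Y665F replicate 2 (adjusted p = 0.678) and without the cells marked as doublets (adjusted p 0.0546 to 0.0781). The fold changes stayed near the reported ones, at -1.61 for Eif5a, -1.52 for Hmgn2 and -1.15 for Pclaf without doublets, and at -1.58 for Eif5a and -1.35 for Pclaf with the replicate term. Eif5a and Hmgn2 have many near-identical copies in the genome, so their counts are uncertain.

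Over all marrow, Eif5a fell by 2.18 ± 0.31 on the log2 scale (adjusted p = 5.87e-05), further than in the gate. Hmgn2 had a log2 fold change of -0.96 ± 0.27 and Pclaf of -0.96 ± 0.34 over all marrow, so neither passed the fold limit there, although their adjusted p were 0.00982 and 0.0396. These 2 genes were also more abundant in the gate than over all marrow, at 1656 against 426 CPM for Pclaf and 573 against 319 CPM for Hmgn2.

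No gene was called in Y665H against WT, where edgeR gave 64 genes and DESeq2 53 genes with an unadjusted p under 0.05 and the lowest adjusted p was 0.765. The 10 genes with the lowest p, none of which passed, were Lars2, Isg15, Cenpf, Kcnq1ot1, Polr2e, Hp1bp3, Eif3h, Arl6ip1, Eef1a1 and Dynll1. Isg15, a ubiquitin-like interferon product, had 0 and 2 UMIs in WT, 9 and 3 in Y665H, and 15 and 5 in Y665F. Cenpf, a protein of the dividing centromere, took 12 of its 16 Y665H UMIs from 1 cell. Without WT replicate 2 the count was 40, and it was 0 under every other setting run. Between these groups 33.4% of tested genes did not overlap. The 20 Y665H cells and 57316 UMIs give this comparison the least depth of the 3.

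In Y665F against Y665H, 5 genes were called (0.421% of those tested), 4 higher (0.337%) and 1 lower (0.0842%), beside 26.3% over all marrow. Ifitm1 rose with a log2 fold change of 3.16 ± 0.65 (adjusted p = 0.0446) and Ifitm3 with 2.41 ± 0.47 (adjusted p = 0.0337), each losing the call in 4 of 14 settings. The Ifitm1 value was 1.77 without Y665H replicate 1 (adjusted p = 0.383) and 5.13 without Y665H replicate 2, and Ifitm3 lost its call without any 1 of the 4 Y665H and Y665F libraries (adjusted p 0.0558 to 0.310). Dynll1, a light chain of the dynein motor, had 68.9 and 72.5 CPM in the Y665H libraries, 247 and 207 in WT and 529 and 454 in Y665F. Its log2 fold change was 3.04 ± 0.55 (adjusted p = 0.0337), and the 3 genotypes did not overlap, although the Y665H values rest on 3 UMIs and 1 UMI. Rps9, a protein of the small ribosomal subunit, had 1471 and 870 CPM in the Y665H libraries and 3222 and 4589 in those of Y665F, a log2 fold change of 1.91 ± 0.37 (adjusted p = 0.0337), with 138 of the 354 UMIs of Y665F replicate 2 in 1 cell. Its call was lost without Y665F replicate 2 (adjusted p = 0.118) and without Y665H replicate 2 (adjusted p = 0.0640), and that of Dynll1 without Y665H replicate 1 (adjusted p = 0.287) and after thinning (adjusted p = 0.0984). Over all settings the log2 fold change was 1.70 to 2.65 for Rps9 and 2.86 to 3.49 for Dynll1. For Rps9, WT lay between at 2618 and 1387 CPM and overlapped Y665H. Eif5a fell by 1.60 ± 0.34 on the log2 scale (adjusted p = 0.0488) and lost the call in 6 of 15 settings. With the replicate number as a term, Eif5a (-1.60, adjusted p = 0.0617) and Ifitm1 (3.14, adjusted p = 0.0565) missed the threshold. Between these groups 52.7% of tested genes did not overlap. The count was 67 without WT replicate 1, 60 without WT replicate 2, 8 without Y665F replicate 1 and 2 without Y665F replicate 2 or Y665H replicate 1. Genes for ribosomal proteins and Dynll1 share sequence with other copies, so their counts are uncertain.

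The summed level of the interferon-induced list was higher in each Y665F library than in any WT or Y665H library. The 28 genes of the list found in the files summed to 721 and 1014 CPM in the WT libraries, 1494 and 1160 in the Y665H libraries, and 2567 and 1970 in the Y665F libraries. The 3 genotypes did not overlap, with WT lowest, but the margin between Y665H and WT was narrow. The 1160 CPM of Y665H replicate 2 rest on 16 UMIs, and in Y665H replicate 1 a single cell held 7 of the 9 Isg15 UMIs. Over all marrow, Y665H overlapped WT (below). A few members gave much of the sum, with 202 UMIs of Bst2, 151 of Ifitm3 and 105 of Ifi27l2a over all gate cells. Ifit1, Ifit2 and Rsad2 were each seen in 1 of 105 gate cells and Ifit3 in 0, so the sum does not describe the list evenly. In Y665F against WT 5 of the 28 were tested. Of these, 1 was called higher (Ifitm3, also counted above, beside 0.168% of all genes tested) and none lower. Their median log2 fold change was 1.98 beside 0.00 over all genes tested. A gene can pass the low-count filter through the libraries of a single genotype, where it is high. Ifitm3 had 7 and 6 UMIs in WT and 87 and 43 in Y665F. The median thus describes only those 5 genes and is no measure of the list. Ifi203 had a log2 fold change of 1.98 (adjusted p = 0.109), Ifi27l2a of 1.38 (adjusted p = 0.174), Bst2 of 1.02 (adjusted p = 0.235) and Isg15 of 2.72 (adjusted p = 0.240), so none of these passed. The whole marrow showed the same order for Y665F, with the list at 1041 and 814 CPM in the WT libraries, 988 and 842 in the Y665H libraries, and 2003 and 1569 in the Y665F libraries.

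**Figure D4:**
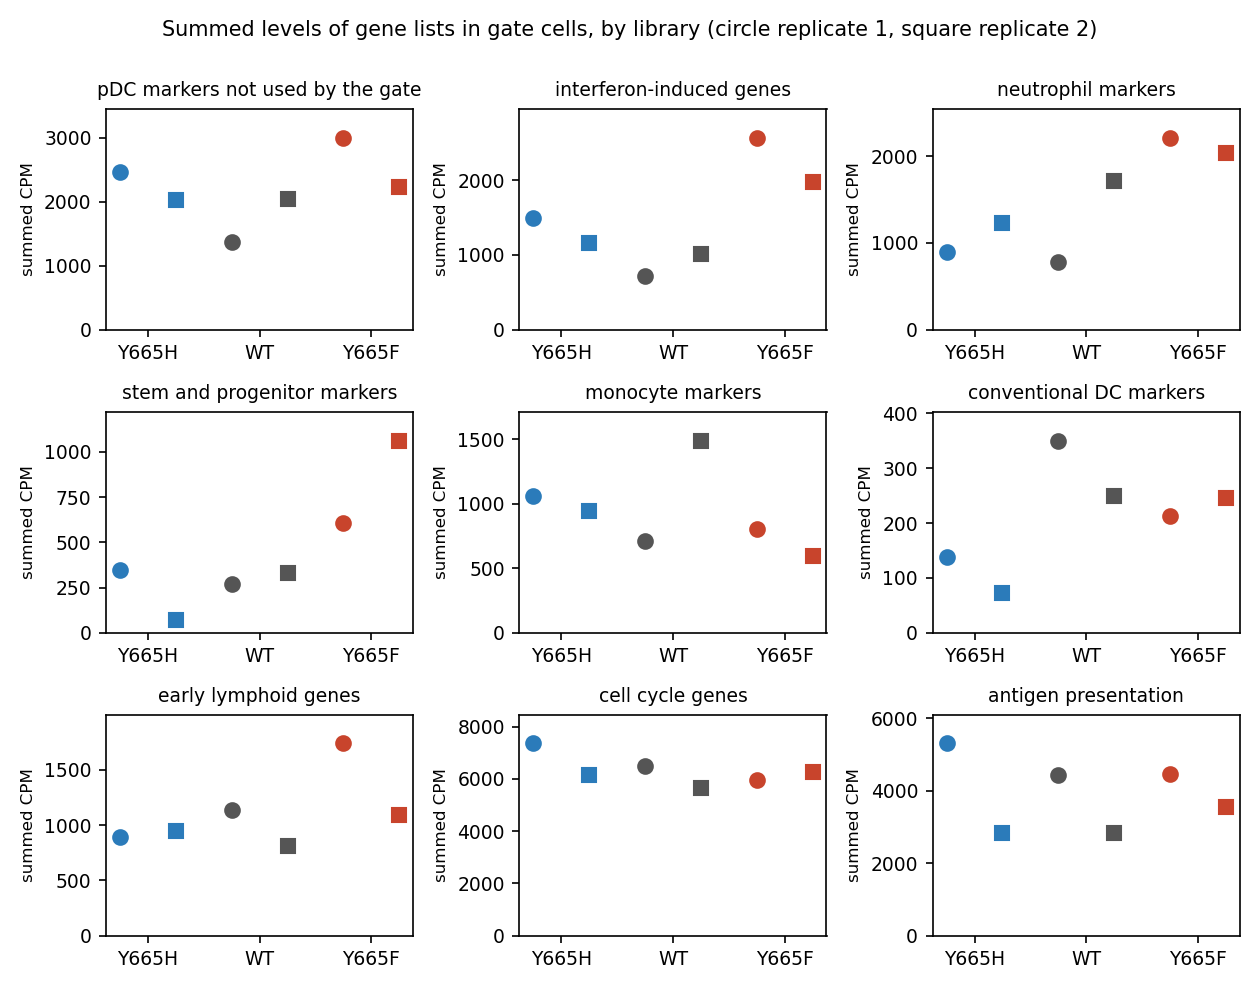
Summed level in CPM of 9 gene lists in gate cells (y axis), by genotype (x axis) and library, with replicate 1 as circles and replicate 2 as squares. Interferon-induced genes lie at 721 and 1014 CPM in WT and at 2567 and 1970 CPM in Y665F, while cell cycle genes lie between 5631 and 7353 CPM in all 6 libraries.

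None of the 5 tested pDC markers was called in any of the 3 comparisons, in which 0.505%, 0.0% and 0.421% of all genes tested were, so the count says nothing particular about these markers. Tcf4, the factor that sets pDC identity, had 196 and 124 CPM in the WT libraries, 230 and 145 in the Y665H libraries, and 158 and 181 in the Y665F libraries, a log2 fold change of 0.11 ± 0.47 in Y665F against WT. Cox6a2 had 484 and 766 CPM in the WT libraries, 965 and 1015 in the Y665H libraries, and 687 and 441 in the Y665F libraries, a log2 fold change of 0.04 ± 0.35. For both genes WT and Y665F overlapped. The summed list of 16 was 1371 and 2049 CPM in the WT libraries, 2459 and 2030 in the Y665H libraries, and 3001 and 2230 in the Y665F libraries, where Y665F did not overlap WT. Without Ly6d the sums were 1371 and 1656 CPM in WT and 2196 and 1646 CPM in Y665F, which overlap. The list of 11 pDC transcription factors summed to 907 and 745 CPM in WT, 942 and 652 in Y665H, and 1256 and 1231 in Y665F, which did not overlap the others. Over all marrow it was at 733 and 506 CPM in WT, 443 and 480 in Y665H, and 814 and 1069 in Y665F. Of its members, Cbfa2t3, a corepressor that supports TCF4, had a log2 fold change of 1.65 ± 0.64 in Y665F against WT and did not pass (adjusted p = 0.273). Factors that oppose pDC fate, such as Id2 and Nfil3, had 3 and 9 UMIs in all.

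Ly6d varied most between libraries among these markers. It had 0 and 393 CPM in the WT libraries, 161 and 580 in the Y665H libraries, and 806 and 583 in the Y665F libraries, so Y665F stood above WT and narrowly above Y665H. The log2 fold change in Y665F against WT was 2.34 ± 1.25 and did not pass (adjusted p = 0.494). At least 1 Ly6d UMI was found in 29 of 52 Y665F cells (55.8%), 5 of 33 WT cells (15.2%) and 4 of 20 Y665H cells (20%), beside 2.55%, 2.34% and 1.58% of all marrow barcodes. The part of depth, doublets and free RNA in these shares of cells was not tested. The interaction test with the B gate, given below, kept its Ly6d call without the cells marked as doublets. Dntt, by contrast, had 814 and 311 CPM in WT and 490 and 324 CPM in Y665F, and the groups overlapped.

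Socs2, a feedback inhibitor that STAT5 induces, was found in Y665F gate cells and in no others. It had 17 and 8 UMIs in the Y665F libraries and 0 in the 4 WT and Y665H libraries. A count of 0 allows up to 3 UMIs, 20.6 CPM over both WT libraries and 52.3 CPM over both Y665H libraries, so the Y665F level of 123 CPM was at least 5.94-fold higher than WT and at least 2.34-fold higher than Y665H. It did not pass the low-count filter and was not tested in the gate. Socs2 was seen in 20 of 52 Y665F gate cells (38.5%), beside 21.3% of all Y665F marrow barcodes and 1.27% of WT marrow barcodes, and 0 of 33 WT gate cells allows a share of up to 9.09%. These shares were not taken at equal depth. Y665F gate medians were 4517.5 and 2273 UMIs, beside 2566 and 2247 over all quality-passing Y665F barcodes. The STAT5-responsive list of 18 summed to 1402 and 890 CPM in WT and 1098 and 1283 CPM in Y665F. None of its 3 tested members was called in Y665F against WT, which with 0.505% of all genes called says nothing about the list. Ccnd3, a cyclin of the G1 phase, had 412 and 373 CPM in WT and 118 and 130 CPM in Y665F, a log2 fold change of -1.55 ± 0.47 that did not pass (adjusted p = 0.160). Cish, another feedback inhibitor, had 4 UMIs in all.

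Summed levels of granule and stem cell genes were higher in Y665F beside these results. None of the 4 tested granule genes was called in Y665F against WT, which with 0.505% of all genes called says little. No stem cell gene was tested. The neutrophil list summed to 783 and 1718 CPM in the WT libraries, 896 and 1232 in the Y665H libraries, and 2211 and 2035 in the Y665F libraries, where Y665F did not overlap the others. Ctsg had a log2 fold change of 2.20 in Y665F against WT (adjusted p = 0.100) and Elane of 1.45 (adjusted p = 0.109), so neither passed. The stem and progenitor list, with all 10 genes seen, summed to 268 and 331 CPM in the WT libraries, 345 and 72.5 in the Y665H libraries, and 608 and 1063 in the Y665F libraries. Over all marrow the neutrophil list was at 6324 and 3841 CPM in Y665F against 1974 and 2112 CPM in WT, but the 4 granule genes gave 2828 and 2349 CPM of it against 1955 and 1979 CPM, and its other members, such as S100a8, gave 3497 and 1493 CPM against 19.2 and 133 CPM. Those other members had 23 of the 652 list UMIs in the gate. Stem cell genes were at 1259 and 1432 CPM over all Y665F marrow against 576 and 578 CPM in WT. Their part in the Ifitm and Socs2 values was not tested. Monocyte genes went the other way in value, at 711 and 1490 CPM in WT and 806 and 596 CPM in Y665F, with the groups overlapping.

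Proliferation genes were compared over the same order of STAT5B activity. Cell cycle genes took 0.649% and 0.563% of gate UMIs in WT (mean 0.606% ± 0.0609, SD, n = 2), 0.735% and 0.616% in Y665H and 0.596% and 0.627% in Y665F. The groups overlapped, and 33.3% of pairs followed the order (exact two-sided permutation p = 0.578, smallest possible 0.0222). When Irf8 was not required, 75% of pairs followed the order (exact permutation p = 0.333). None of the 14 tested members was called in any comparison, which at 0.505% or fewer of all genes called says little. Rrm2, which makes DNA building blocks, had 319 and 311 CPM in WT and 94.8 and 13 CPM in Y665F, a log2 fold change of -2.21 ± 0.54 that did not pass (adjusted p = 0.100), while over all marrow it fell by 2.74 on the log2 scale (adjusted p = 2.66e-06). Top2a, which untangles DNA in dividing cells, had 289 and 269 CPM in WT and 371 and 363 CPM in Y665F (log2 fold change 0.50 ± 0.35, adjusted p = 0.536).

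The remaining pathway lists held few testable genes, and none of their members was called in any of the 3 comparisons, which with at most 0.505% of all genes called says nothing about these pathways. Antigen presentation genes, which load peptides for T cells, summed to 4442 and 2836 CPM for WT, 5308 and 2827 for Y665H, and 4462 and 3565 for Y665F, with 7 members tested. Genes of the secretory pathway, on which interferon release depends, summed to between 2803 and 3906 CPM, with 8 tested. In that list both Y665H libraries, at 3906 and 3625 CPM, stood above WT (2803 and 3623) and above Y665F (3459 and 3059), by a narrow margin over WT. Endosomal sensing genes lay between 1206 and 1594 CPM, with 2 tested, and they and the antigen presentation genes overlapped between WT and each of the other genotypes. Conventional dendritic cell markers were at 350 and 248 CPM for WT, 138 and 72.5 for Y665H, and 213 and 246 for Y665F. WT thus stood above the other groups, by a narrow margin over Y665F and with no member tested. Of this list, Flt3 was seen in 44 of 105 gate cells, Wdfy4 in 15, Clec10a in 11 and Clec9a and Itgax in 2 each. No UMI of Xcr1, Zbtb46, Cd209a, Batf3 or Itgae was found, so the sum rests mostly on less specific members. Genes of JAK kinases and STATs were at 206 and 331 CPM for WT, 437 and 290 for Y665H, and 466 and 428 for Y665F, with 1 member tested, and Y665H overlapped both other genotypes. Cytokine receptor genes ranged from 435 to 1161 CPM, trafficking receptors from 373 to 674, pDC surface receptors from 1113 to 2360 and stress genes from 553 to 1470.

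Whether the Y665F difference was particular to the gate was tested as an interaction with 2 other marrow gates, 575 barcodes with F13a1 and Csf1r (monocyte gate) and 2972 with Cd79a (B gate). Against the monocyte gate 4 of 2450 genes were called (0.163%), 1 higher (0.0408%) and 3 lower (0.122%), and against the B gate 2 of 4733 (0.0423%). Elane, the granule protease, had a difference between the 2 log2 fold changes of 1.42 ± 0.35 (adjusted p = 0.0297), with 124 and 228 CPM in WT and 426 and 402 CPM in Y665F gate cells against 1426 and 2231 CPM and 1937 and 1234 CPM in the monocyte gate. It was called in 1 of 9 alternative settings. The Ly6d log2 fold change in the gate exceeded that in the B gate by 3.23 ± 0.45 (adjusted p = 2.19e-09), called under all 9 settings, with values from 2.51 without WT replicate 1 to 12.4 without WT replicate 2. B-gate cells had 106 and 162 CPM of Ly6d in WT and 73.6 and 53.5 CPM in Y665F, so part of the difference lies in lower B-gate values, and the change in the gate alone did not pass (above). WT replicate 1 held no Ly6d UMI in the gate, so that fitted value depends on 1 library at 0. The 4 other genes called are given with the closing values.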

How the data were processed

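Bone marrow expression was measured in 6 droplet libraries. The authors aligned reads to mm10 and deposited raw UMI counts per gene and barcode. The file headers name Cell Ranger 6.0.0, the submitters' processing notes Cell Ranger 5.0 and Seurat 4.0, and the labels a 3′ v3.1 kit where the methods name a 5′ kit. The lymph node libraries (WT, heterozygous and homozygous Y665F) and spleen libraries (WT, Y665H and Y665F) served only for levels side by side.

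Barcodes were gated as described, on counts as deposited (pandas 2.3.3, numpy 2.4.6 and scipy 1.17.1 under Python 3.11.15). UMIs were summed per library and tested with edgeR 4.0.16 (quasi-likelihood, TMM, filterByExpr, limma 3.58.1, R 4.3.3), all 6 libraries in 1 model, Benjamini-Hochberg over all genes tested. Standard errors were taken as the log2 fold change over the root of the F statistic. CPM scales the UMIs of the cells summed to 1000000. Interactions had library as a block. DESeq2 1.42.0 was an alternative. The fit over all marrow barcodes was added after the gate results were seen. Doublets were scored against simulated ones, at an expected 0.8% per 1000 barcodes, and kept in the gate unless stated. Scripts were tested on simulated data.

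Named genes were, per comparison, up to 10 called genes in each direction whose libraries did not overlap, without gate genes, sex-linked and predicted genes, or, with fewer than 5 calls, the 10 lowest p, for interactions up to 6 in each direction, and the list members with the lowest p. The gate, the 26 gene lists and the tests were chosen with earlier results of these data known. Socs2, Cish, Tcf4, Cox6a2, Ly6d, Dntt, Top2a, Id2 and Nfil3 were named for their roles, after their values were seen. Exact binomial intervals are at 95%, and a count of 0 was read as at most 3 counts.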

Additional observations from a re-analysis of the deposited data

Results flagged for a closer look

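Genes whose Y665F effect differed between the gate and another marrow gate, by the edgeR interaction test, are given with what each value rests on. Elane differed by 1.42 from the monocyte gate (adjusted p = 0.0297). It had 23 UMIs in WT and 85 in Y665F gate cells, and lost its call in 8 of 9 alternative settings.

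Myl10 differed by -4.39 from the monocyte gate (adjusted p = 2.04e-05) and AY036118 by -2.60 (adjusted p = 5.07e-10). WT replicate 1 held all 52 WT gate UMIs of Myl10 and 90 of the 93 of AY036118, and without it the values were 5.22 and 0.16. Lars2, which charges mitochondrial leucine tRNA, differed by -1.27 (adjusted p = 0.00147), with 1103 and 766 CPM in WT and 695 and 441 CPM in Y665F gate cells. It lost the call in 5 of 9 settings, at -0.75 without WT replicate 1 (adjusted p = 1) and -0.89 without doublets (adjusted p = 0.618). Lars2 and AY036118 are loci that can collect ribosomal reads, and the part of this in their values was not tested.

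Ly6d differed by 3.23 from the B gate (adjusted p = 2.19e-09) and Cd74, the chaperone of class II molecules, by 5.51 (adjusted p = 0.000328). Cd74 did not pass the low-count filter in the gate alone, so its change there was not tested. It had 1 and 0 UMIs in WT and 7 and 7 UMIs in Y665F gate cells. In the B gate, which was chosen by Cd79a, it went from 600 and 350 CPM to 139 and 63.1 CPM. The call was lost without WT replicate 1, at 10.5 (adjusted p = 0.460), and without Y665F replicate 2, at 4.83 (adjusted p = 0.972), and 1 cell held 5 of the 7 UMIs of Y665F replicate 2.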

How the results depend on the processing

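Of 341 values of single named genes under alternative settings, 281 kept their direction and side of the threshold and 54 lost the call. A further 4 gained one (all in Y665H against WT without WT replicate 2) and 2 reversed, Myl10 (5.22) and AY036118 (0.16) without WT replicate 1. These values include the genes named in Y665H against WT, none of which was called, so none could lose a call. Among called genes the kept share was thus lower. Without 1 library each, Myl10 ranged from -6.90 to 5.22 and AY036118 from -2.98 to 0.16. When Irf8 was not required, the pairs in order turned from 66.7% to 41.7% for the gate share and from 33.3% to 75.0% for cell cycle genes. The cause was not tested. Without 1 library each, these ranges were 50% to 87.5% and 25.0% to 50%, where no p can go below 0.0667.

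Calls in Y665F against WT were 6 in the reported fit, 2 with DESeq2, 15 without Irf8 in the gate, 3 without doublets, 13 after thinning to 1500 UMIs and 3 to 45 without 1 library each. Calls in Y665F against Y665H were 5, and 27 with 2 of 6 further markers required, 20 with DESeq2 (2 of them among the 5, the other 3, Ifitm1, Ifitm3 and Dynll1, having an adjusted p of NA), 12 with DESeq2 size factors, 35 without Irf8, 21 without doublets, 20 without the low-count filter, 17 after thinning and 2 to 67 without 1 library each. Calls in Y665H against WT were 0 to 40, in the monocyte interaction 0 to 10 and in the B interaction 1 to 3 without 1 library each. Where 1 library of a genotype remained, it was assumed to vary like the others. The gene tests with at least 2 Siglech UMIs were not run, because WT replicate 2 and Y665H replicate 2 then held 0 cells.

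Replicate numbers coincided with sex and with gate depth in every genotype, but were not taken as pairs in the reported fit. Deviations of same-numbered libraries correlated at 0.19 (WT and Y665H), -0.04 (WT and Y665F) and 0.09 (Y665H and Y665F) over 961 genes. With counts this low, such values cannot show that a shared effect of the replicate number was absent. The replicate block of the gate share and of the cell cycle share (exact permutation p = 0.722 for both, also for the thinned gate share) was added after seeing the data. With the replicate block 4 genes were called in Y665F against WT, 5 in Y665F against Y665H and 0 in Y665H against WT. In Y665F against Y665H, Ifitm1 (adjusted p = 0.0565) and Eif5a (0.0617) then missed the threshold. Depth limits the comparison, since 1 UMI in Y665H replicate 2 equals 72.5 CPM.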
